A study of Mus musculus with 8 samples.

Results

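The enzymes examined here, which can split ester bonds in lipids, are possible stand-ins for adipose triglyceride lipase (ATGL): the carboxylesterases Ces1a, Ces1b, Ces1c, Ces1d, Ces1e, Ces1f, Ces1g, Ces2e and Ces3a, and the arylacetamide deacetylase Aadac. The members were taken by gene symbol, each from a probe set annotated with exactly 1 symbol, and all 10 of 10 were found, with 1 probe set each, among 22180 genes on the array. The question put to them was whether any was higher in club cells without ATGL. RNA came from club cells of the mouse lung, which line the small airways and secrete protective proteins. The groups were Atgl KO/cTg (4 arrays, 16 mice in all, pools with ages between 38 and 46 weeks) and wt/cTg (4 arrays, 14 mice in all, ages between 41 and 48 weeks), without treatment and on standard chow. Each array held a pool of 3 or 4 mice, so the errors given are those between pools, not between mice. Both genotypes carry cTg, which the labels do not expand, and neither the promoter that drives it nor the tissue reach of the Atgl knockout is given there. Replicate numbers were given in sample order and link no Atgl KO/cTg pool with a wt/cTg pool.

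ATGL, encoded by Pnpla2, removes the first fatty acid from triglycerides stored in lipid droplets, and hormone-sensitive lipase and monoacylglycerol lipase act after it. Carboxylesterases are serine hydrolases, most of them held inside the endoplasmic reticulum, where several liver forms hydrolyse triglycerides that feed lipoprotein assembly, and others clear drugs and xenobiotics. In the lung they are best known from airway secretory and alveolar cells as enzymes of ester drug clearance and surfactant lipid turnover.

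In the RefSeq gene order of the mouse, Ces1a to Ces1g follow each other on chromosome 8, Ces2e and Ces3a lie in a second carboxylesterase cluster of the same chromosome, and Aadac lies on chromosome 3. Start-site sequences from RefSeq (GRCm38.p6) were matched for 7 of 10 members, all but Ces1d, Ces1f and Ces3a. Over the 250 bases before the start, Ces1b and Ces1c shared 85% of 246 aligned bases, the closest pair among the 7. These 2 near copies stood on different sides of the level filter used below, Ces1b above it and Ces1c under it. The stretches below show what the 5 matched Ces1 genes have in common before their starts. Capitals mark TTATGTAA, the letters of the D-box bound by circadian bZIP factors such as DBP, a motif chosen after the sequences had been read. All lie on the minus strand and are written 5′ to 3′ along the gene.
Ces1a (chr8:93048353-93048420): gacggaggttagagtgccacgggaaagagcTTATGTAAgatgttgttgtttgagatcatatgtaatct
Ces1b (chr8:93079987-93080054): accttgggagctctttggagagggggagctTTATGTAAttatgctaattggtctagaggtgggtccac
Ces1c (chr8:93131340-93131407): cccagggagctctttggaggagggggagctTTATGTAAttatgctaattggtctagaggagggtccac
Ces1e (chr8:93229663-93229730): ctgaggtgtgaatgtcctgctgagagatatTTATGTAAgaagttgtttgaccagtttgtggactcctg
Ces1g (chr8:93337404-93337459): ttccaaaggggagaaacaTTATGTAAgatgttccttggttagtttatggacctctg

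On either strand the letters TTATGTAA were found in 5 of the 7 members' windows, those of Ces1a, Ces1b, Ces1c, Ces1e and Ces1g, and in 0.819% of 32851 windows of the same length. The motif was picked from these same sequences, so its count among the members was fixed by that choice and cannot show an enrichment. Each member entered with its first listed start only, while the 32851 windows took in every listed start. The 5 genes are also tandem copies, so their matches are not independent of each other. The core GCGTG read by the aryl hydrocarbon receptor (28.2% of all windows, both strands) and the antioxidant element core TGACNNNGC (10.2%, both strands) were in 0 of the 7. A match is a description of letters and shows no binding. Probe sequences were not used here, so how far signal from one tandem copy enters another's probe set was not tested.

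The deposited log2 signals had array medians of 5.12 to 5.24, and arrays correlated at 0.965 to 0.985. Pnpla2, the gene knocked out, fell to 0.304 of its control level (6.98 ± 0.20 against 8.70 ± 0.11, SD, n = 4, log2 difference -1.72, SE 0.11, limma adjusted p = 0.000116), and its groups did not overlap. Club cell markers read high in both groups, with Scgb1a1 at 12.92 and 12.99 and Cyp2f2 at 12.63 and 12.57, and no member of that marker list passed the test. At an unadjusted limma p under 0.05, 4 of its 10 markers were higher in Atgl KO/cTg and 0 lower, against 3.39% of all genes higher. Groups did not overlap for 2 of the 10, both higher, against 4.35% of all genes tested in either direction. Markers of other cells read high too, such as Sftpc of alveolar type 2 cells (12.53 and 12.94). The arrays are bulk samples, so fewer cells of a type and less RNA per cell cannot be told apart. One array stood apart in sex-linked transcripts: wt/cTg replicate 4 read 3.75 for Xist against 9.34 to 10.67 in the other pools, and 7.05 for Kdm5d against 5.27 to 6.51. It also lay at the low end of the first principal component, the main axis of spread among arrays (-21.8), with Atgl KO/cTg replicate 2 at the high end (28.6). Its mean signals for alveolar type 1, type 2, fibroblast, smooth muscle, endothelial and heart muscle markers were the highest of all pools. Which of these traits acts on the members was not tested. Differences without wt/cTg replicate 4 are given below for Ces1f, Ces1e and Ces2e. For the other tested members they were 0.17 for Ces1d (0.13 with all arrays), 0.27 for Ces1g (0.19) and 0.006 for Ces1b (0.02).

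No carboxylesterase passed the genome-wide test in either direction. Genes were tested with limma when their mean over the 8 arrays lay above 5.18, the median of all probe sets, and the threshold was a Benjamini-Hochberg adjusted p of 0.05 over 13112 genes. Of the 10 members 6 were above that level (Ces1b, Ces1d, Ces1e, Ces1f, Ces1g and Ces2e) and 4 below it (Ces1a, Ces1c, Ces3a and Aadac). Of the 6 tested, 0 rose and 0 fell, where 0.0991% of all genes passed (0.0153% higher and 0.0839% lower). At an unadjusted p under 0.05 limma gave 1 member, Ces1f, which was higher, against 7.95% of all genes (3.39% higher and 4.56% lower), and the exact permutation test gave 0 members. In 0 of 10 members did the groups not overlap, against 3.82% of all 22180 genes. This is the same outcome as the permutation count, since with 4 arrays per genotype that p is under 0.05 only when groups do not overlap. At a share of 3.82%, 0 of 10 says little about the members. As a description, 9 of the 10 lay above 0, with a median log2 difference of 0.11, and 11869 of 22180 genes lay above 0 with a median of 0.0116. The 10 share the same arrays and are not separate evidence.

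**Figure D1:**
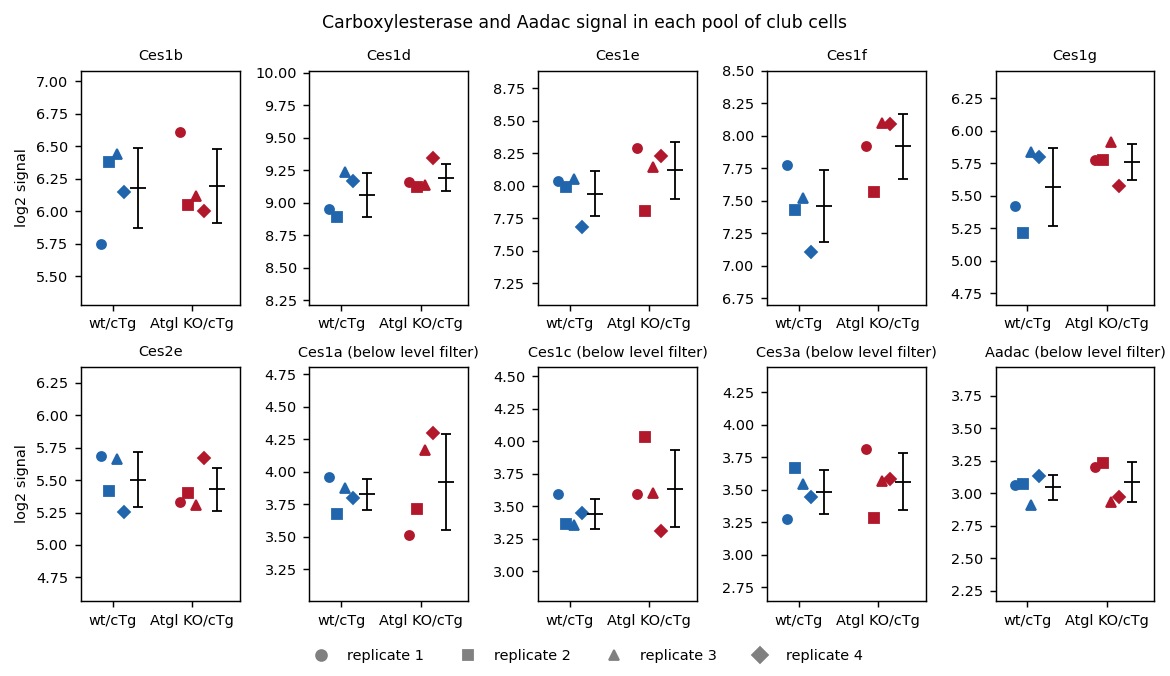
Log2 signal (y axis, each panel 1.8 log2 units high) of the 10 members in each pool of wt/cTg (blue) and Atgl KO/cTg (red), with marker shapes for replicates 1 to 4 and black bars for mean ± SD (n = 4). Groups overlapped in all 10 panels, and Ces1f had 3 Atgl KO/cTg pools above the highest wt/cTg pool.

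Ces1f, an endoplasmic reticulum triglyceride hydrolase also called TGH-2, had the greatest difference among the members. It read 7.93, 7.57, 8.10 and 8.10 in the Atgl KO/cTg pools and 7.78, 7.43, 7.52 and 7.11 in the wt/cTg pools. Of the Atgl KO/cTg pools, 3 lay above every control, while replicate 2 lay below wt/cTg replicate 1, so the groups overlapped. The log2 difference was 0.46 (SE 0.16, 95% interval 0.12 to 0.80), or 1.38-fold (1.08 to 1.75). It did not pass over all genes (limma adjusted p = 0.496), and the exact two-sided permutation p was 0.0571, where 8 arrays allow 0.0286 at the least. The lowest Ces1f value belonged to wt/cTg replicate 4, the pool that stood apart in Xist and in the first principal component. Without that pool the difference was 0.34 (limma adjusted p = 0.78), and with a sex-linked score (Xist minus the mean of Uty, Kdm5d and Eif2s3y) as covariate it was 0.41 (limma adjusted p = 0.537). Leaving out Atgl KO/cTg replicate 2, the lowest pool of its genotype, gave 0.58 (limma adjusted p = 0.4285). Leaving out wt/cTg replicate 1, the highest control, gave 0.57 (limma adjusted p = 0.339). With wt/cTg replicate 4 and Atgl KO/cTg replicate 2, the ends of the first principal component, both left out, the difference was 0.46 (limma adjusted p = 0.492).

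Ces1d, the triacylglycerol hydrolase that supplies fatty acids for very low density lipoprotein in liver and takes part in fat cell lipolysis, varied little between pools. Its signals were 9.16, 9.12, 9.14 and 9.34 in Atgl KO/cTg and 8.95, 8.89, 9.23 and 9.17 in wt/cTg. The 2 lowest pools were controls and the highest was Atgl KO/cTg replicate 4, while the other 2 controls lay above the other 3 Atgl KO/cTg pools. The log2 difference was 0.13 (SE 0.10, 95% interval -0.08 to 0.34, limma adjusted p = 0.784, exact permutation p = 0.286). The upper end of that interval, which is not adjusted for the number of genes, is a 1.27-fold rise in bulk signal. For the other tested members the upper ends also lay below a doubling, that of Ces1f being the highest (1.75-fold). A change within club cells alone was not tested. Without wt/cTg replicate 2 the difference was 0.07, and without wt/cTg replicate 3 it was 0.19. The sample titles hold runs of neighbouring mouse numbers, and 3 runs include both genotypes. With the run as a block in limma the difference was 0.20 (SE 0.09, limma adjusted p = 0.723), with an unadjusted p under 0.05. The share of all genes under that p in the block fit was not counted. The labels do not call these runs sets or batches. In each of the 3 runs the Ces1d signal was higher in Atgl KO/cTg (9.16 and 9.12 against 8.95, 9.14 against 8.89, and 9.34 against 9.17). The highest control, wt/cTg replicate 3 (9.23), had no Atgl KO/cTg pool in its run and does not enter this. No other tested member was higher in all of these comparisons, for example Ces1f (7.57 against 7.78) and Ces1g (5.58 against 5.80). How many of all genes show such agreement was not counted.

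Ces1g, a liver carboxylesterase that acts on triglycerides and cholesteryl esters, read 5.77, 5.77, 5.91 and 5.58 in Atgl KO/cTg and 5.42, 5.21, 5.84 and 5.80 in wt/cTg. The controls fell into a low pair (replicates 1 and 2) and a high pair, and the high pair lay among the Atgl KO/cTg pools. The log2 difference was 0.19 (SE 0.15, 95% interval -0.15 to 0.53, limma adjusted p = 0.803, exact permutation p = 0.314). It was 0.07 without wt/cTg replicate 2.

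Ces1e, known as egasyn, which anchors beta-glucuronidase in the endoplasmic reticulum, read 8.29, 7.80, 8.15 and 8.23 in Atgl KO/cTg and 8.03, 7.99, 8.05 and 7.68 in wt/cTg. Replicate 4 of wt/cTg lay below every other pool, and the other 3 controls lay close together. The log2 difference was 0.18 (SE 0.13, 95% interval -0.10 to 0.45, limma adjusted p = 0.774, exact permutation p = 0.257). It was 0.09 without wt/cTg replicate 4 and 0.28 without Atgl KO/cTg replicate 2, the lowest pool of its genotype.

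Ces1b and Ces2e differed least among the 6 tested members. Ces1b read 6.61, 6.05, 6.12 and 6.004 in Atgl KO/cTg and 5.75, 6.38, 6.44 and 6.15 in wt/cTg, with a log2 difference of 0.02 (95% interval -0.38 to 0.41, limma adjusted p = 0.991). Its highest and lowest pools were the replicates numbered 1 of the 2 genotypes, and its sign turned without either of them. Ces2e, of the subfamily that prefers esters with small acyl groups, was the only one of the 10 below 0: it read 5.33, 5.40, 5.31 and 5.67 in Atgl KO/cTg and 5.69, 5.41, 5.66 and 5.25 in wt/cTg (log2 difference -0.07, 95% interval -0.37 to 0.22, limma adjusted p = 0.936). Its difference ran from -0.16 without wt/cTg replicate 4 to -0.013 without wt/cTg replicate 1, and was also -0.16 without Atgl KO/cTg replicate 4.

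**Figure D2:**
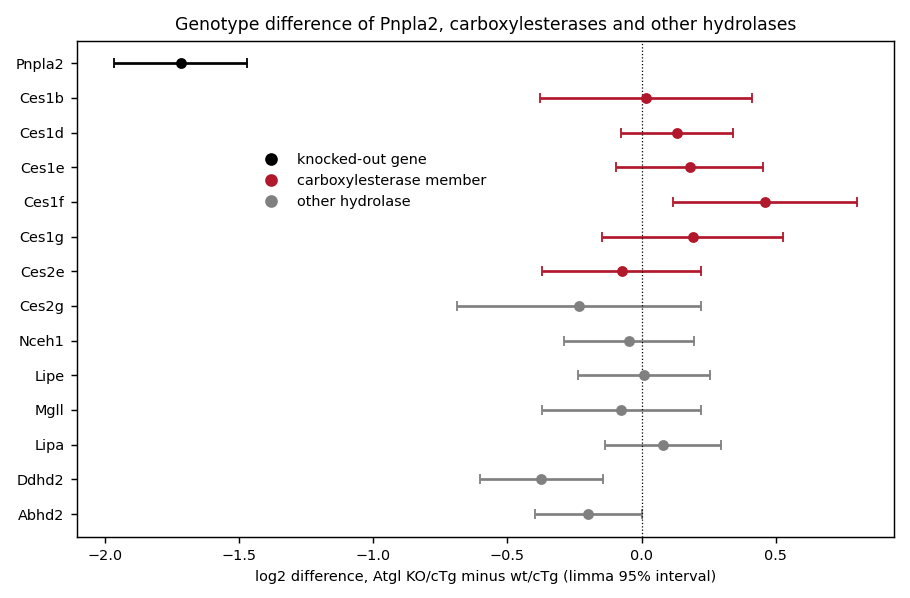
Log2 difference (x axis, Atgl KO/cTg minus wt/cTg, points) with limma 95% intervals (bars, 4 arrays per genotype) for Pnpla2 (black), the 6 tested members (red) and 7 other hydrolases (grey). Pnpla2 lay at -1.72, the Ces1f interval ran from 0.12 to 0.80, and the intervals of the other 5 members included 0.

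The 4 members under the level filter gave low values in every pool and were not part of the limma test. Ces1a read 3.51 to 4.30 in Atgl KO/cTg and 3.68 to 3.96 in wt/cTg (log2 difference 0.10, exact permutation p = 0.6). Ces1c, the carboxylesterase of mouse plasma, read 3.31 to 4.03 and 3.36 to 3.60 (0.19, exact permutation p = 0.343, 0.06 without Atgl KO/cTg replicate 2 and 0.30 without Atgl KO/cTg replicate 4). For both, the Atgl KO/cTg pools spread more widely than the controls and covered their range. Ces3a read 3.29 to 3.82 and 3.28 to 3.67 (0.08, exact permutation p = 0.543). Aadac, an endoplasmic reticulum relative of hormone-sensitive lipase linked to triglyceride turnover in liver, read 2.93 to 3.23 and 2.91 to 3.14 (0.04, exact permutation p = 0.714). With no level filter, limma called 7 of 22180 genes (0.0316%) and none of these 4, with adjusted p of 0.94, 0.85, 0.936 and 0.967. Detection above background could not be tested for them.

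The remaining carboxylesterases showed no call either. Of 10 further family members listed, 9 had a probe set and only Ces2g was above the level filter. Ces2g read 7.73, 7.68, 7.59 and 8.13 in Atgl KO/cTg and 8.34, 8.43, 7.42 and 7.85 in wt/cTg. The controls held both the 2 highest values and the lowest one. The log2 difference was -0.23 (SE 0.21, 95% interval -0.69 to 0.22, limma adjusted p = 0.826). The 8 below the filter (Ces1h, Ces2a, Ces2b, Ces2f, Ces2h, Ces3b, Ces4a and Ces5a) had means of 2.86 to 4.76 and differences of -0.08 (Ces5a) to 0.34 (Ces1h). Nceh1, the neutral cholesterol ester hydrolase related to Aadac, was at -0.05 (95% interval -0.29 to 0.19, limma adjusted p = 0.951), and Aadacl2, Aadacl3 and Aadacl4 lay below the filter.

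Other hydrolases of neutral lipids likewise gave no call in limma. Of 31 listed, 29 had a probe set and 20 were tested: 0 rose and 0 fell, where 0.0991% of all genes passed. Of the 20, 10 lay above 0 and 10 below, and the median log2 difference was 0.0046, against -0.0073 over all genes tested. Lipe, hormone-sensitive lipase (0.01, 95% interval -0.24 to 0.26), Mgll, monoacylglycerol lipase (-0.07, -0.37 to 0.22), and Lipa, lysosomal acid lipase (0.08, -0.14 to 0.30), had groups that overlapped. Ddhd2, a triglyceride hydrolase of the DDHD family, was the only one of the 20 with an unadjusted p under 0.05, against 7.95% of all genes. It read 6.70, 6.84, 6.996 and 7.07 in Atgl KO/cTg and 7.31, 7.23, 7.32 and 7.24 in wt/cTg. Every Atgl KO/cTg pool lay below every control, as in 4.35% of all genes tested in either direction. Its log2 difference of -0.37 (SE 0.10) did not pass (limma adjusted p = 0.398, exact permutation p = 0.0286). Abhd2, an alpha/beta hydrolase, was at -0.20 (limma adjusted p = 0.63).

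Partners of these enzymes did not pass either. Of the ATGL cofactors and droplet proteins listed, 10 of 11 were tested, 0 rose and 0 fell, and the count at an unadjusted p under 0.05 was 0. Over all genes 0.0991% passed and 7.95% had an unadjusted limma p under 0.05. At those shares, counts of 0 in lists as short as these say little about the partners. G0s2, the ATGL inhibitor, was at -0.37 (95% interval -0.78 to 0.05), Hilpda, another ATGL inhibitor, at -0.36 (-0.80 to 0.07), and Abhd5, its activator, at 0.06 (-0.14 to 0.26). Of the transcription factors reported to act on carboxylesterase genes, 5 of 10 were tested, and 0 passed limma over all genes. Ahr, the aryl hydrocarbon receptor (0.25, 95% interval 0.03 to 0.47, limma adjusted p = 0.561), and Nr3c1, the glucocorticoid receptor (-0.20, -0.39 to -0.0050, limma adjusted p = 0.615), had an unadjusted p under 0.05, against 3.39% of all genes higher and 4.56% lower. Of the partners in lipoprotein assembly, 3 of 5 were tested (0 passing, and 0 at an unadjusted p under 0.05). Apobec1, which edits apolipoprotein B mRNA, was at 0.10 and Sar1b, a coat protein of lipoprotein export, at 0.06, while Mttp and Apob themselves lay below the filter.

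Between pools the members varied largely apart from each other. Over 15 pairs of tested members the median Pearson r was 0.19, and 0 pairs passed Benjamini-Hochberg adjustment. The closest pair was the neighbours Ces1e and Ces1f over 8 arrays (r = 0.86, permutation p = 0.0063, adjusted 0.0949; rho = 0.79, permutation p = 0.0279, adjusted 0.419). With the 2 arrays farthest from the Ces1e median left out, r was 0.75, and with genotype means removed it was 0.85. Ces1d and Ces1f, the 2 triglyceride hydrolases first described, gave r = 0.30 (permutation p = 0.475, adjusted 0.867; rho = 0.17, permutation p = 0.703, adjusted 0.806), and r = -0.27 without the 2 arrays farthest from the Ces1d median. No other pair had an unadjusted permutation p under 0.05.

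Levels of cell type markers were set beside the members to see which varied with them between pools. Marker scores are the mean log2 value of a list's tested genes on an array, and 96 relations of a member with a score were computed. Against the club cell score (10 of 10 markers tested, 8 above 0, 0 rose and 0 fell, score 10.93 to 11.09 in Atgl KO/cTg and 10.82 to 10.97 in wt/cTg), Ces1f gave r = 0.88 over 8 arrays (permutation p = 0.0042, adjusted 0.135; rho = 0.90, permutation p = 0.0046, adjusted 0.146). The r was 0.97 without the 2 arrays farthest from the Ces1f median and 0.75 with genotype means removed. Ces1e gave r = 0.81 with the same score (permutation p = 0.0149, adjusted 0.358; rho = 0.88, permutation p = 0.0072, adjusted 0.174), and 0.62 without the 2 arrays farthest from its median. The markers of the club list did not move alike. Cckar (0.41) and Gabrp (0.34) had its greatest genotype differences, while the secretoglobins Scgb1a1 (-0.07) and Scgb3a2 (-0.09) lay below 0. Which markers carry these correlations, and whether the score follows club cell content, was not tested.

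**Figure D3:**
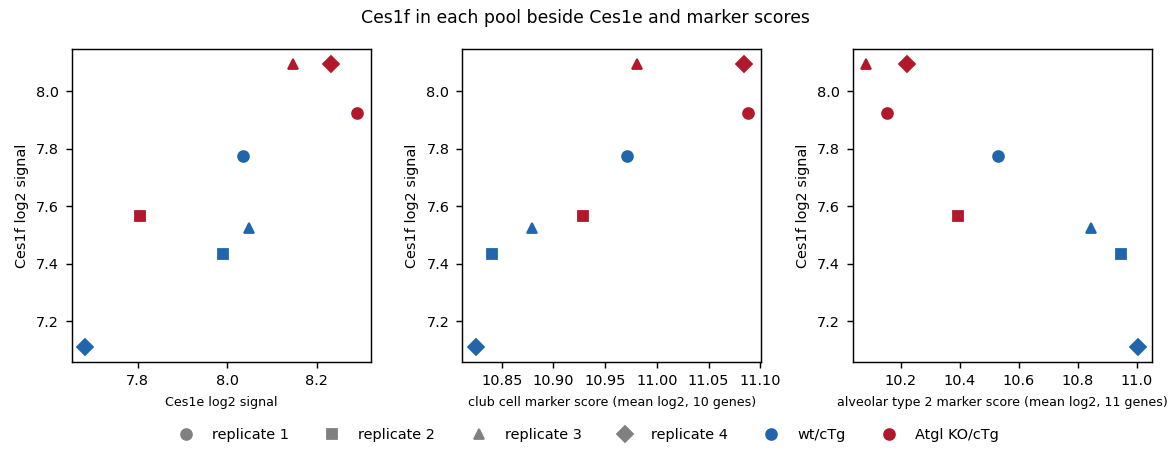
Ces1f log2 signal (y axes) in each pool against Ces1e log2 signal, the club cell marker score and the alveolar type 2 marker score (x axes, log2), with wt/cTg in blue, Atgl KO/cTg in red and marker shapes for replicates 1 to 4. The pool with the lowest Ces1f (7.11), wt/cTg replicate 4, also had the lowest Ces1e (7.68), the lowest club score (10.82) and the highest type 2 score (11.01), and the type 2 score separated the genotypes.

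Alveolar type 2 markers ran the other way. All 11 of 11 markers of that list were tested and lay below 0 in Atgl KO/cTg, and 4 of them fell: Lamp3 (-1.53), Etv5 (-1.01), Slc34a2 (-1.01) and Sftpc (-0.41), with limma adjusted p of 0.0294, 0.0294, 0.0477 and 0.0461. Over all 13112 genes tested, for this and the lists that follow, 0.0839% fell, 0.0153% rose and 6851 lay below 0. Markers of a list share the same arrays and are not separate evidence. The type 2 score was 10.08 to 10.39 in Atgl KO/cTg and 10.53 to 11.01 in wt/cTg, with no overlap. Sftpb (11.86 to 11.92 against 11.95 to 12.22) and Sftpa1 (11.94 to 12.11 against 12.02 to 12.28) did not pass (limma adjusted p = 0.435 and 0.679). Because the score separates the genotypes, no pooled correlation with Ces1f is given. With genotype means removed, r over the 8 arrays was -0.87, and it did not pass adjustment over the 96 relations. Its adjusted p from permuted residuals, which is approximate, was 0.181. Smooth muscle markers (6 of 6 below 0, 0 fell, score 5.95 to 6.39 against 6.47 to 7.02, with Acta2 at -0.60) and heart muscle markers (6 of 7 below 0, score 6.73 to 6.88 against 7.21 to 7.42) did not overlap either. Of the heart muscle list, Actc1 (-0.93) and Tnnt2 (-0.90) fell, both with a limma adjusted p of 0.0477, and Myl7 (-0.64) and Tnni3 (-0.28) did not pass (limma adjusted p = 0.132 and 0.631). Lists with overlapping scores shifted too, among them goblet cell (7 of 7 above 0, score difference 0.70) and neutrophil markers (7 of 7 above 0, 0.49). Alveolar fibroblast markers lay below 0 (12 of 12, score difference -0.49). No marker of these 3 lists passed. The part of any of these marker differences in the Ces1f value was not tested. Of the hepatocyte list 6 of 10 markers lay below the level filter, among them Alb (4.11 to 4.34 over all pools), and the score of the other 4 was 5.55 to 5.96 in Atgl KO/cTg and 5.58 to 5.82 in wt/cTg.

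A single relation passed adjustment over the 96. It was Ces2e against the adipocyte score (r = -0.85, permutation p = 0.000273, adjusted 0.0262; rho = -0.98, permutation p = 0.000397, adjusted 0.0381), which rested on only 2 tested markers, Plin1 and Cidec. The r was -0.69 without the 2 arrays farthest from the Ces2e median, and -0.88 with genotype means removed, where the adjusted p from permuted residuals, which is approximate, was 0.181.

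**Figure D4:**
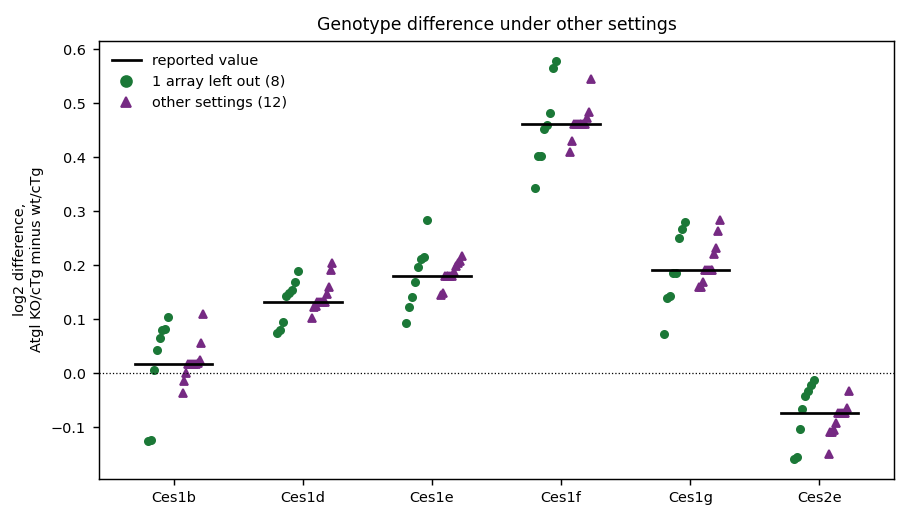
Log2 difference (y axis, Atgl KO/cTg minus wt/cTg) of the 6 tested members as reported (black lines), with each of 8 arrays left out (green circles) and under 12 other settings (purple triangles). Ces1f stayed between 0.34 and 0.58 and Ces1b crossed 0.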

How the data were processed

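Gene expression was measured in 8 arrays of pooled mouse club cells. RNA was amplified from 50 ng and labelled with biotin, per the labels' protocols. The authors deposited 1 value per probe set and array, taken as log2 signal from the range (1.85 to 13.54) and used without change. Their background correction and normalization were not given in the sources used here, and no scan batch is named. Of 41345 probe sets, 23521 had 1 gene symbol in the platform annotation, 1814 several and 16010 none. The probe set with the highest mean was kept per gene.

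The genotype test was limma 3.58.1 under R 4.3.3 (variance trend, two-sided, adjusted p of 0.05) beside exact permutation over 70 arrangements of arrays. Correlations used all orderings of the arrays. Steps were tested on simulated data. Precision is limited by the number of arrays, and p-values measure only the spread between these pools. The members and lists were chosen with earlier results of these data known. Named were all members, Pnpla2, the genes passing or the 2 of smallest p in each pathway list, and Lipe, Mgll, Abhd5, G0s2, Lipa and Nceh1. Up to 3 markers of highest mean were named from lists whose scores separate the genotypes, and the sex-linked genes. Scgb1a1, Scgb3a2, Cckar, Gabrp, Cyp2f2, Lamp3, Etv5, Slc34a2, Actc1, Alb, Plin1, Cidec, Mttp, Apob and the family members under the filter were named after their values were seen. Alternatives covered filter, prior, normalization, weights, probe sets, covariates and arrays left out. Figures used matplotlib 3.10.9.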

Additional observations from a re-analysis of the deposited data

Results flagged for a closer look

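In 76 groups of 4 pools (38 named genes in both genotypes), 12 held 1 pool far from the other 3 by Dixon's ratio, where independent normal values give about 1 in 20. That reference does not hold here, since the genes share the same 8 arrays, include the sex-linked ones and were partly picked by p. The share over all genes was not computed, so the count is not read as an excess. Among the members these were Ces1d, with Atgl KO/cTg replicate 4 highest (9.345), and Ces1e, with wt/cTg replicate 4 lowest (7.682). In wt/cTg, replicate 4 was also lowest for Xist (3.749) and Apobec1 (8.125) and highest for Kdm5d (7.053), Eif2s3y (7.996) and Tagln (7.203). In Atgl KO/cTg, replicate 2 was lowest for Nceh1 (8.937) and Tnni3 (7.588), replicate 3 highest for Mgll (7.194) and G0s2 (8.744), and replicate 4 highest for Abhd5 (8.888). The causes were not tested.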

How the results depend on the processing

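Over 20 alternatives, 8 of them leaving out 1 array, the count of members passing stayed at 0, as did that of the other hydrolases and partners. At an adjusted p of 0.10 it was also 0. Over the same settings the number of all genes passing ran from 1 to 25, against 13 as reported. Pnpla2 passed in all 20 (-1.62 to -1.78). Ces1c, Ces1d, Ces1e, Ces1f, Ces1g and Ces2e kept their sign in every setting run. Ces1f lay between 0.34 and 0.58, with limma adjusted p of 0.273 to 0.78. With runs of mouse numbers in the sample titles as a block, Ces1f was 0.48 and Ces1d 0.20 (0.13 as reported), both with an unadjusted limma p under 0.05 (0.0302 and 0.0467). The share of all genes under that p in the block fit was not counted, so these 2 have no background to be read against. In the same fit Ces1b was 0.11, Ces1e 0.22, Ces1g 0.28 and Ces2e -0.033, and no member passed over all genes. The sign of Ces1b turned with median centring (-0.014) and array weights (-0.037), and its range with each array left out was -0.13 to 0.10. That of Aadac turned with quantile normalization (-0.0043), with a range of -0.010 to 0.090 when each array was left out. The same range was -0.028 to 0.23 for Ces1a and -0.0050 to 0.17 for Ces3a, both turning in 1 of 8. The cause was not tested. With genotype means removed, 0 of 96 relations with marker scores passed, against 1, although r of that relation (Ces2e with the adipocyte score) was -0.88 against -0.85 and the number at an unadjusted p under 0.05 was 7 against 5. No member had another probe set to try. The labels give no replicate numbers that pair pools, so the runs of mouse numbers were the only block tried. Signal over background could not be tested, which limits the 4 members under the level filter most.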
